A study of Mus musculus with 10 samples.

Results

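The genes described here are 33 genes that mark monocytes and macrophages, followed across 10 expression arrays of mouse acute myeloid leukaemia driven by the MLL-AF9 fusion. They were listed by name, but with earlier results of these data known, so the list is not independent of the data. All 33 were found among the 20564 genes with a probe set of a single known symbol. They are covered by 57 probe sets, and the probe set with the highest mean over all arrays stood for each gene. The arrays fall into 3 Eed-null, 4 Ezh2-null and 3 WT samples, which the submitters call biological replicates. In all groups, cells of replated MLL-AF9 colonies had been injected into sublethally irradiated C57B/6 mice, and pIpC had been given later to switch on Cre. The sorted cells were live bone marrow cells positive for GFP, which marks the MLL-AF9 retrovirus, and for YFP, which marks Cre activity, so the WT cells had also been exposed to pIpC and Cre. The promoter that drives Cre and the number of donors or colonies behind each array are not given in the sources used here. A group may therefore differ from another by its colonies as well as by its genotype, and the 2 cannot be told apart.

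Monocytes and macrophages are the phagocytic branch of the myeloid lineage. They survive and mature under signals from the receptor Csf1r, sense microbes through Toll-like receptors, Cd14 and the lectin Clec7a, and take up particles through scavenger, mannose and Fc receptors. Tissue macrophages such as those of bone marrow and spleen also make complement C1q and proteins that clear dying cells and recycle iron, while circulating monocytes carry little of these. MLL-AF9 leukaemia is known for cells stalled between a granulocyte and monocyte progenitor and a mature monocyte, which is why such genes are read in it. Ezh2 supplies the enzyme activity of the Polycomb complex PRC2, which methylates histone H3 and keeps genes silent, and Eed is needed to hold that complex together.

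The median intensity of an array lay between 137.1 and 144.2, and precision is limited by how few arrays there are. The first principal component over all genes had Eed-null replicate 1 at 63.4 and WT replicate 3 at -45.3, its opposite ends, and many values below are also given without one of them. The probe set of Ezh2 read between 8.91 and 9.36 on the log2 intensity scale in the 4 Ezh2-null arrays, and 10.25, 9.35 and 10.44 in WT replicates 1, 2 and 3. WT replicate 2 thus lay within the Ezh2-null range for Ezh2, whereas its Bmi1 value of 8.15 lay with the other WT arrays (8.62 and 8.54) and apart from the Ezh2-null arrays (10.18 to 10.57). Eed read 8.34 to 8.69 in Eed-null arrays, against 10.24 to 10.79 in Ezh2-null and 10.20 to 10.65 in WT arrays. It is unknown here whether these probe sets read deleted exons, and one outside the deleted part checks nothing. The granulocyte markers, 21 measured genes of neutrophils and their precursors, had a mean level of 11.89 to 12.29 in Eed-null, 12.02 to 12.42 in Ezh2-null and 12.17, 12.10 and 10.84 in WT arrays, the lowest being WT replicate 3.

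The genes that most myeloid cells carry were bright on every array. Tyrobp, the adaptor that carries an activation motif for many myeloid receptors, averaged 13.99 ± 0.10 in Eed-null, 13.88 ± 0.27 in Ezh2-null and 13.85 ± 0.15 in WT arrays (log2 intensity, SD, n = 3, 4 and 3). Fcer1g, the signalling chain shared by Fc receptors, averaged 11.32 ± 0.03, 11.52 ± 0.24 and 11.46 ± 0.31 in the same groups, and Tlr4, the receptor for bacterial lipopolysaccharide, 9.08 ± 0.05, 9.12 ± 0.13 and 9.19 ± 0.26. In all 3 genes the groups overlapped, and the spread over all 10 arrays was at most 0.67. For Tlr4 this holds for the brightest of its 4 probe sets. Its next brightest averaged 8.71 over all arrays, with SDs of 0.20, 0.35 and 0.74 in Eed-null, Ezh2-null and WT arrays. The median of all genes on an array lay between 7.42 and 7.49. Above it on every array lay 13 of the 33 genes and a similar share of all genes, 8234 of 20564. The 13 were Csf1r, Cd14, Tlr4, Cd68, Fcgr3, Fcer1g, Tyrobp, Ms4a6c, Vcam1, Lyz1, Apoe, Mpeg1 and Lgals3. The Lyz1 probe set used can also read the near-identical Lyz2. The dimmest of the 3 Lyz1 probe sets averaged 7.33, 7.15 and 7.21 in Eed-null, Ezh2-null and WT arrays.

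The complement genes and several receptors of resident tissue macrophages were dim. The 10 genes below the median of all genes on every array were Mrc1, Marco, Cd36, C1qa, C1qb, C1qc, Ms4a7, Spic, Cd86 and Slamf9. Of all 20564 genes a larger share, 8441, lay below it on every array. The C1q chains, which build the first component of the classical complement pathway, read 5.20 to 5.90 over all 3 chains in Eed-null, 4.92 to 6.39 in Ezh2-null and 5.08 to 6.28 in WT arrays. Mrc1, the mannose receptor, read 5.26 to 5.65 in Eed-null, 5.42 to 5.94 in Ezh2-null and 5.15 to 6.05 in WT arrays. Cd36, a scavenger and fatty acid receptor, read 4.63 to 4.94 in Eed-null, 4.38 to 4.84 in Ezh2-null and 4.50 to 5.06 in WT arrays. A dim probe set can miss a real change, because fold changes are compressed near the background, and no detection call was among the values used here. Adgre1, which encodes a surface receptor widely used to identify mouse macrophages, and Cd163, the scavenger receptor for haemoglobin, were not in this dim group. Vcam1 lay above the median of all genes on every array. In all 3 genotypes, then, the signalling adaptors were bright, and the C1q chains, the mannose receptor and Spic were dim on the probe sets used.

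Between Eed-null and WT leukaemia, Cd68, Aif1, Mpeg1 and Clec7a had the smallest p-values of the 33 genes, all with lower means in Eed-null, but 0 of the 33 passed an adjusted p of 0.05 (limma over all genes). Of all 20564 genes, 27 passed, which is 0.131%. Cd68, a glycoprotein of macrophage endosomes and lysosomes, read 9.10, 9.79 and 9.54 in Eed-null replicates 1, 2 and 3, against 10.52, 11.05 and 10.58 in WT replicates 1, 2 and 3. All Eed-null arrays lay below all WT arrays. The log2 difference was -1.24 (SE 0.31, 95% interval -1.92 to -0.56), so that the level was 2.36-fold lower in Eed-null (limma, adjusted p = 0.212). Aif1, an actin-binding protein of activated macrophages, read 5.70, 8.15 and 6.71 in Eed-null, against 9.32, 9.43 and 8.06 in WT arrays. Eed-null replicate 2 lay just above WT replicate 3, so the groups overlapped. The Aif1 difference was -2.08 (SE 0.58, 95% interval -3.37 to -0.79; limma, adjusted p = 0.264).

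**Figure D1:**
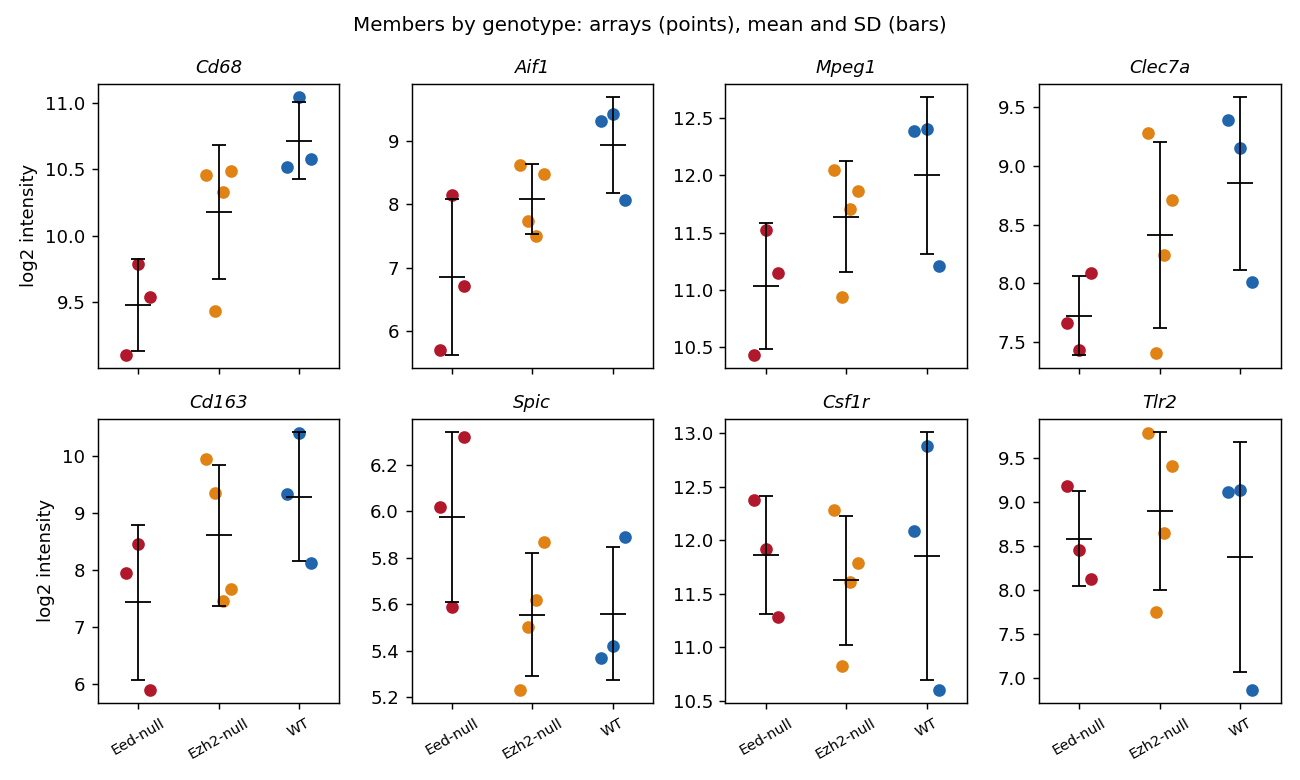
Log2 intensity (vertical axis, a separate scale per gene) of 8 genes in Eed-null, Ezh2-null and WT arrays, each point an array and each bar the group mean with its SD. Cd68, Aif1, Mpeg1, Clec7a, Cd163 and Spic are the 6 genes with the smallest p between Eed-null and WT, and Csf1r and Tlr2 are shown for their spread inside WT, where replicate 3 is the lowest point at 10.60 and 6.86.

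Mpeg1, a pore-forming protein of phagosomes, read 10.43, 11.52 and 11.15 in Eed-null, against 12.39, 12.41 and 11.21 in WT arrays, a difference of -0.97 (SE 0.40; limma, adjusted p = 0.440). Clec7a, the receptor for fungal beta-glucan, read 7.66, 7.43 and 8.09 in Eed-null, against 9.39, 9.15 and 8.01 in WT arrays, a difference of -1.12 (SE 0.47; limma, adjusted p = 0.458). In both genes WT replicates 1 and 2 lay above all Eed-null arrays and WT replicate 3 lay within the Eed-null range. Cd163 read 7.95, 8.46 and 5.89 in Eed-null, against 9.34, 10.41 and 8.13 in WT arrays, a difference of -1.86 (SE 0.84; limma, adjusted p = 0.483). Eed-null replicate 3 was the lowest of all 10 arrays for this gene, and without it the difference was -1.09. Ms4a6c, a membrane protein gene of monocytes, read 8.82, 11.92 and 11.10 in Eed-null, against 11.90, 11.65 and 11.47 in WT arrays. Its difference was -1.06 (SE 0.60; limma, adjusted p = 0.586) and became -0.16 without Eed-null replicate 1 and -1.71 without Eed-null replicate 2. Adgre1 read 8.61, 8.36 and 8.37 in Eed-null, against 9.29, 9.20 and 9.04 in WT arrays. The groups did not overlap, and the difference was -0.73 (SE 0.46; limma, adjusted p = 0.620). Spic, a transcription factor of iron-recycling macrophages, was the gene with a higher mean among the 8 with the smallest p, at 6.02, 5.59 and 6.32 in Eed-null, against 5.37, 5.42 and 5.89 in WT arrays. It differed by 0.42 (SE 0.22; limma, adjusted p = 0.549), on a dim probe set, and by 0.24 without Eed-null replicate 3.

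Counted over the list, 20 of the 33 differences between Eed-null and WT were negative and 13 positive, while 45.2% of all genes were negative. The median was -0.11, against 0.03 for all genes. At an unadjusted p under 0.05 there were 4 of the 33 genes, all lower in Eed-null, where 4.98% of all genes were lower, 5.39% higher and 10.4% either way at that level. Cd68 and Adgre1 were the 2 genes without overlap of the groups, both lower in Eed-null, where 5.31% of all genes were lower without overlap. The scavenger and mannose receptors divided evenly, with 3 of 6 negative, and so did the Fc receptors and adaptors, with 2 of 4. Csf1r itself, the receptor that defines the lineage, differed by 0.00 (SE 0.54, 95% interval -1.19 to 1.20; limma, adjusted p = 0.999). Without WT replicate 3 the median of the 33 became -0.34, against 0.03 for all genes, and 27 of 33 differences were negative. Csf1r then differed by -0.63 (and by 0.52 without WT replicate 2). Limma still called 0 members without WT replicate 3, and 8 had an unadjusted p under 0.05. The share of all genes at that level in this fit is not given here, so the 8 have no background beside them. Without that array and Eed-null replicate 1 together, the median was -0.27 with 25 of 33 negative. The smallest adjusted p of a member under any single array left out was 0.0715, without Eed-null replicate 2.

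**Figure D2:**
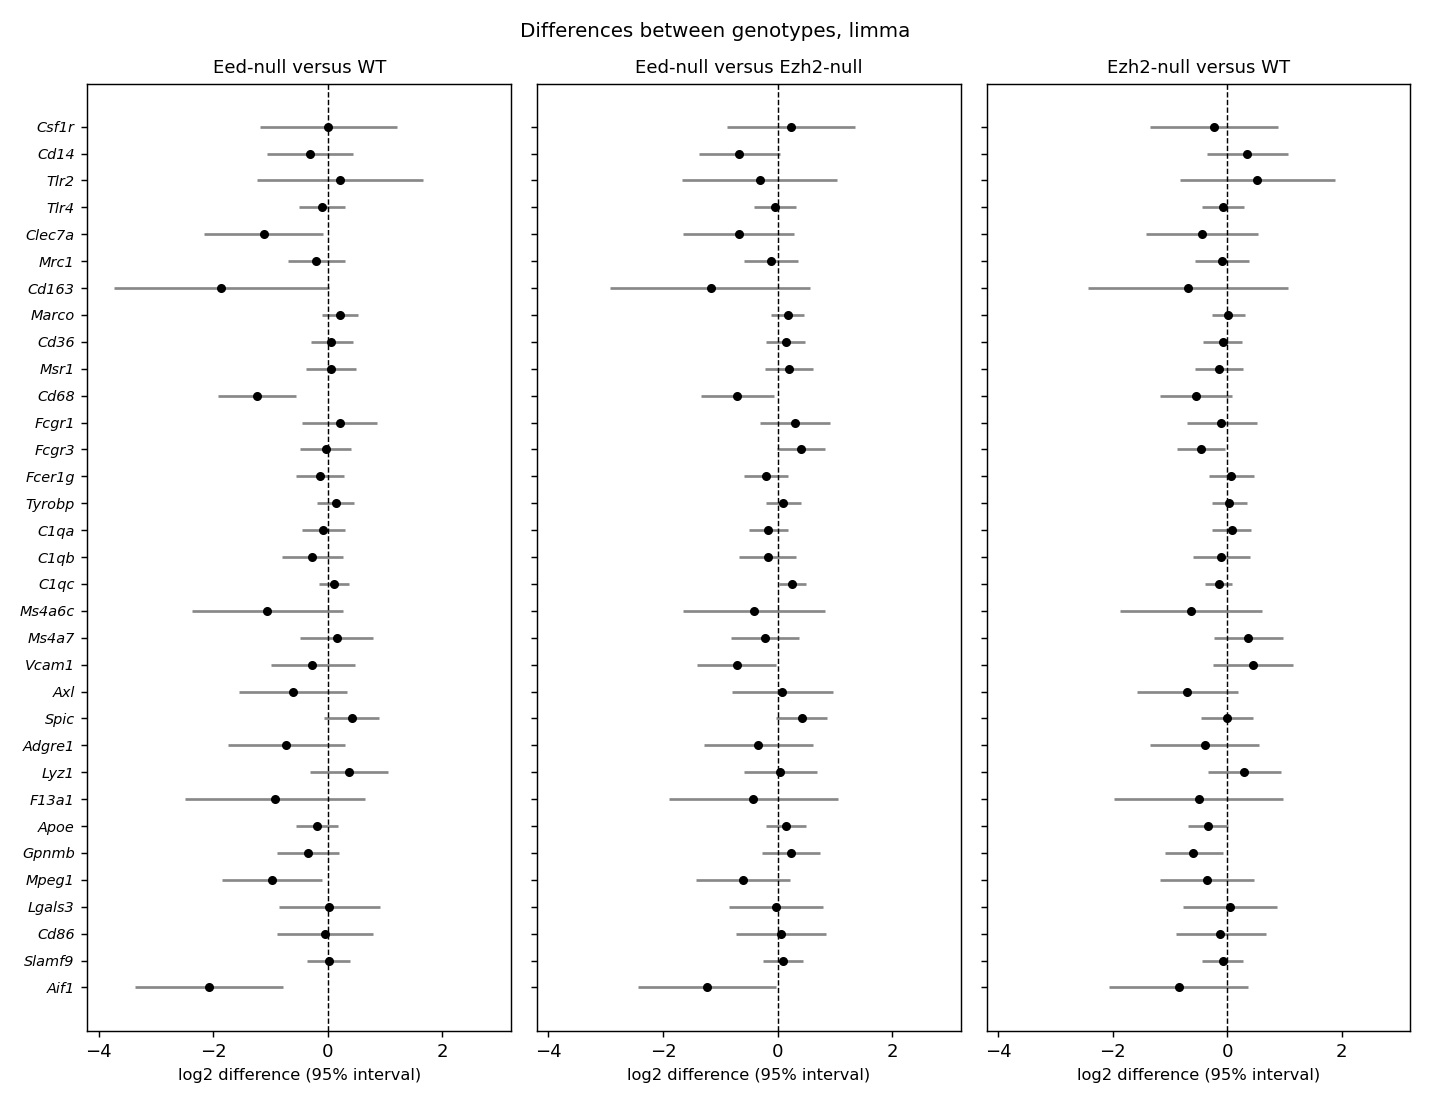
Log2 difference (horizontal axis) of each of the 33 genes in Eed-null against WT, Eed-null against Ezh2-null and Ezh2-null against WT, as limma's estimate (point) with its 95% interval (line), genes ordered by role. Most intervals cross 0, and Aif1 and Cd68 lie farthest from it among those that do not, at -2.08 and -1.24 in Eed-null against WT.

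The direct comparison of Eed-null with Ezh2-null leukaemia showed 0 of 33 genes passing (limma), where 16 of all genes passed, which is 0.0778%. Cd68 again had the smallest p, with the Eed-null values above and 10.46, 9.43, 10.33 and 10.49 in Ezh2-null replicates 1 to 4. It differed by -0.70 (SE 0.29; limma, adjusted p = 0.517), and the low Ezh2-null replicate 2 lay inside the Eed-null range. Aif1 read 8.62, 7.74, 7.50 and 8.48 in Ezh2-null arrays and differed by -1.23 (SE 0.55; limma, adjusted p = 0.531). The Aif1 difference was -0.66 without Eed-null replicate 1 and -1.88 without Eed-null replicate 2. Vcam1, an adhesion molecule of marrow macrophages and stroma, read 8.56, 9.51 and 8.28 in Eed-null, against 8.99, 9.97, 9.43 and 9.59 in Ezh2-null arrays, a difference of -0.71 (SE 0.31; limma, adjusted p = 0.528). It was -1.08 without Eed-null replicate 2 and -0.46 without Eed-null replicate 3. Cd14, the co-receptor for lipopolysaccharide, read 7.84, 7.50 and 7.67 in Eed-null, against 8.98, 7.86, 8.15 and 8.37 in Ezh2-null arrays. It was the single gene of the 33 whose groups did not overlap here, by a margin of Eed-null replicate 1 under Ezh2-null replicate 2, and it differed by -0.67 (SE 0.32; limma, adjusted p = 0.556). Of all genes, 3.74% were lower in Eed-null without overlap and 6.81% higher, and 0 of the 33 were higher.

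Fcgr3, the low-affinity IgG receptor, ran the other way. It read 11.56, 10.97 and 11.29 in Eed-null, against 11.22, 10.95, 10.64 and 10.64 in Ezh2-null arrays, a difference of 0.41 (SE 0.19; limma, adjusted p = 0.548), and of 0.27 without Eed-null replicate 1. C1qc read 5.34, 5.20 and 5.34 in Eed-null, against 4.92, 5.22, 5.08 and 4.93 in Ezh2-null arrays, a difference of 0.26 (SE 0.11; limma, adjusted p = 0.520) on a dim probe set. C1qa and C1qb, whose products assemble with C1qc into 1 protein, differed by -0.16 (SE 0.16) and -0.17 (SE 0.23), so the 3 chains did not share a direction. Spic, with the Eed-null values above, read 5.23, 5.50, 5.62 and 5.87 in Ezh2-null arrays and differed by 0.42 (SE 0.20), or 0.25 without Eed-null replicate 3. Mpeg1 read 12.05, 10.94, 11.71 and 11.86 in Ezh2-null arrays and differed by -0.61 (SE 0.37), or -0.31 without Eed-null replicate 1. In both genes the groups overlapped. Over the list, 18 differences were negative and 15 positive, while 42.0% of all genes were negative. The median was -0.04, against 0.04 for all genes, and 4 genes had an unadjusted p under 0.05, where 9.18% of all genes did. C1qc was the 1 higher gene, where 5.19% of all genes were higher, and Cd68, Vcam1 and Aif1 were the 3 lower ones, where 3.99% were lower. That count of 4 became 0 without Eed-null replicate 1 or 3, and 1 without Ezh2-null replicate 3 or 4. It was 2 without WT replicate 2 or Ezh2-null replicate 1, and 8 without Ezh2-null replicate 2. The shares of all genes at that level in these fits are not given here.

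Between Ezh2-null and WT leukaemia 0 of 33 genes passed (limma), and of all genes 5 passed, which is 0.0243%. At an unadjusted p under 0.05 there were 2 of the 33, Gpnmb and Fcgr3, both lower in Ezh2-null, where 1.83% of all genes were lower at that level, 1.91% higher and 3.74% either way. Gpnmb, a transmembrane glycoprotein of lipid-laden macrophages, read 6.49, 6.29, 6.59 and 6.92 in Ezh2-null, against 6.78, 7.75 and 6.96 in WT arrays. Its difference was -0.59 (SE 0.23, 95% interval -1.09 to -0.08; limma, adjusted p = 1.00) and -0.29 without WT replicate 2, its highest array. Fcgr3, with the Ezh2-null values above, read 11.29, 11.29 and 11.38 in WT arrays, and all Ezh2-null arrays lay below them. It differed by -0.46 (SE 0.19; limma, adjusted p = 1.00), and by -0.58 to -0.38 over single arrays left out. Fcgr3 shares a family of closely similar IgG receptor genes, so that part of its signal may come from a relative.

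The other genes with small p-values in this comparison were spread over several roles. Apoe, the lipid carrier that macrophages secrete, read 7.95, 8.12, 8.09 and 8.03 in Ezh2-null, against 8.30, 8.68 and 8.17 in WT arrays, a difference of -0.34 (SE 0.16; limma, adjusted p = 1.00) and of -0.19 without WT replicate 2. Cd68, with the values above, differed by -0.54 (SE 0.29) and by -0.29 without Ezh2-null replicate 2. Both were without overlap, as were Fcgr3 and Ms4a6c, and these 4 of 33 genes were all lower in Ezh2-null. Of all genes, 2.79% were lower without overlap and 2.21% higher. The highest Ezh2-null and lowest WT arrays read 8.12 and 8.17 for Apoe, 10.49 and 10.52 for Cd68 and 11.22 and 11.29 for Fcgr3. They read 11.26 and 11.47 for Ms4a6c, which differed by -0.64 (SE 0.56). Axl, a receptor through which macrophages take up dying cells, read 6.40, 5.99, 6.07 and 6.05 in Ezh2-null, against 6.96, 7.88 and 5.64 in WT arrays. Its difference of -0.70 (SE 0.40) was -0.17 without WT replicate 2 and -1.29 without WT replicate 3. Aif1 differed by -0.85 (SE 0.55), and by -1.28 without WT replicate 3. Vcam1, with the Ezh2-null values above, read 9.19, 8.79 and 9.16 in WT arrays and differed by 0.45 (SE 0.31), or 0.29 without Ezh2-null replicate 2. C1qc read 5.08, 5.36 and 5.13 in WT arrays and differed by -0.15 (SE 0.11), or -0.07 without WT replicate 2. The groups overlapped in all 3 genes.

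Over the list, 23 of 33 differences between Ezh2-null and WT were negative, while 55.3% of all genes were negative. The median was -0.10, against -0.02 for all genes. Without WT replicate 3 the median became -0.34 with 27 negative, and without WT replicate 2 or Ezh2-null replicate 2 it was -0.04 in each case. Limma called 0 of the 33 in each of these fits, with 5, 0 and 2 genes at an unadjusted p under 0.05. The shares of all genes at that level in the same fits are not given here. The comparisons of Eed-null and of Ezh2-null with WT share the same 3 WT arrays, so a WT array that stands low or high moves both in the same direction. For Cd68 the differences were -1.24 in Eed-null and -0.54 in Ezh2-null, for Aif1 -2.08 and -0.85, for Clec7a -1.12 and -0.44, and for Mpeg1 -0.97 and -0.36. These genes were picked for their small p in Eed-null against WT. Other members, Cd14 and Vcam1 among them, had estimates of opposite sign against WT. Cd14 differed by -0.31 (SE 0.34) in Eed-null, or 0.05 without WT replicate 1, and by 0.35 (SE 0.32) in Ezh2-null. Vcam1 differed by -0.27 (SE 0.33) in Eed-null and 0.45 (SE 0.31) in Ezh2-null. The dimmer Vcam1 probe sets gave 0.31, 0.09 and -0.25 in Eed-null and 0.95, 0.22 and 0.25 in Ezh2-null. Spic differed by 0.42 (SE 0.22) in Eed-null and -0.01 (SE 0.20) in Ezh2-null. In Ezh2-null, single arrays left out moved Clec7a between -0.86 (without WT replicate 3) and -0.11 (without Ezh2-null replicate 2), and Mpeg1 between -0.76 and -0.13 without the same arrays. Without WT replicate 1 both were at -0.17, and without WT replicate 2 Mpeg1 was at -0.16 and Clec7a at -0.29.

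A further 6 genes of several roles had overlapping groups in both comparisons with WT. Fcgr1, the high-affinity IgG receptor, read 7.40 to 7.81 in Eed-null, 6.66 to 7.79 in Ezh2-null and 6.94 to 7.83 in WT arrays, with differences from WT of 0.21 (SE 0.30) in Eed-null and -0.10 (SE 0.28) in Ezh2-null. Marco, a scavenger receptor of bacteria, differed from WT by 0.21 (SE 0.14) in Eed-null and 0.02 (SE 0.13) in Ezh2-null. Ms4a7, another MS4A membrane protein, differed by 0.15 (SE 0.29) and 0.37 (SE 0.27) in the same genotypes. Without WT replicate 3 the Eed-null differences of Fcgr1 and Ms4a7 were both -0.03, and that of Marco 0.30. The costimulatory ligand Cd86 differed by -0.06 (SE 0.38) in Eed-null and -0.12 (SE 0.35) in Ezh2-null, the SLAM-family receptor Slamf9 by 0.01 (SE 0.17) and -0.08 (SE 0.16), and Mrc1 by -0.20 (SE 0.23) and -0.09 (SE 0.21). The intervals of these differences do not show that the levels were alike.

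Single arrays inside a genotype ranged more widely than genotype means differed, in these genes as in most genes. In 32 of the 33 the range of the arrays inside at least 1 genotype was wider than the largest difference between genotype means, as in 95.5% of all genes. Cd68 was the exception among the 33, with a largest range of 1.06 inside a genotype and a largest difference of 1.24. A range of single arrays is easily wider than a difference of means, so this measure does not set the 33 apart. The median share of a gene's variance that lay between genotypes was 16.7% for the 33 genes and 21.8% for all genes. The 33 genes were also more variable than most, with a median SD inside genotypes of 0.41 against 0.23 for all genes. A range over all 10 arrays of more than 1 was seen in 20 of the 33, or 60.6%, against 36.6% of all genes.

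**Figure D3:**
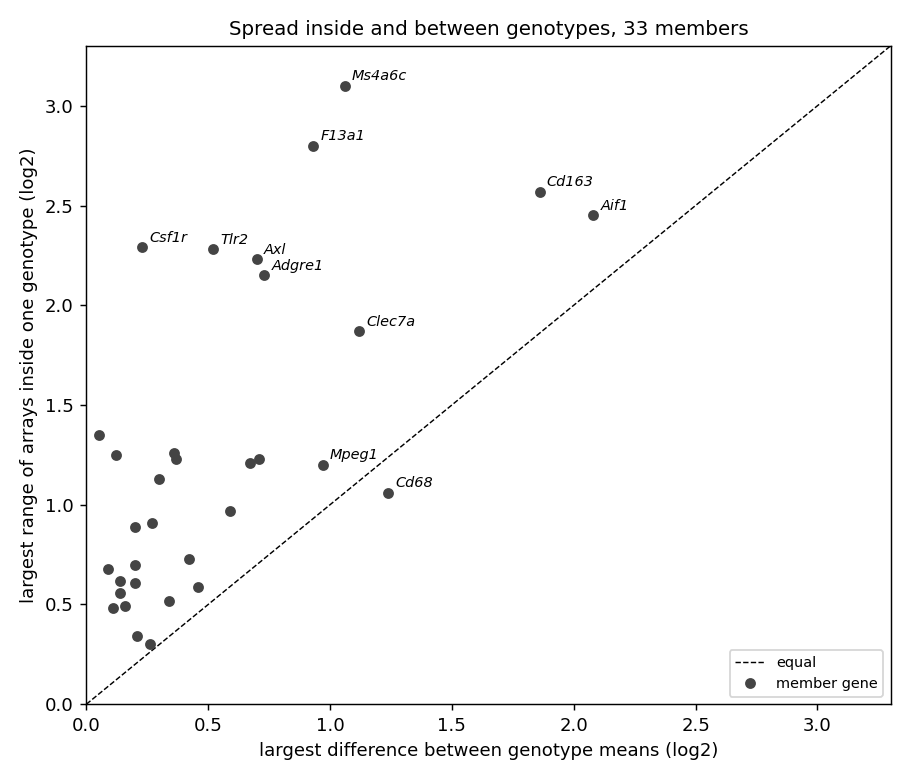
The largest range of arrays inside a single genotype (vertical axis, log2) against the largest difference between genotype means (horizontal axis, log2), each point 1 of the 33 genes, the dashed line marking equal values and names given to the genes with the widest ranges. Cd68 is the single point below the line, and Csf1r has a range of 2.29 inside WT at a largest difference of 0.23.

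Csf1r is an example with a wide range. It read 12.38, 11.92 and 11.28 in Eed-null, 12.28, 10.83, 11.61 and 11.79 in Ezh2-null and 12.09, 12.88 and 10.60 in WT replicates 1 to 3. The highest and the lowest of the 10 arrays were both WT. Tlr2, the receptor for bacterial lipopeptides, read 9.18, 8.45 and 8.12 in Eed-null, 9.79, 7.75, 8.65 and 9.41 in Ezh2-null and 9.12, 9.14 and 6.86 in WT arrays. Lgals3, a galectin of macrophages, read 12.16, 11.42 and 11.68 in Eed-null, 12.19, 10.99, 11.69 and 12.24 in Ezh2-null and 12.03, 12.26 and 10.91 in WT arrays. In these 3 genes WT replicate 3 was the lowest and Ezh2-null replicate 2 the next lowest array. Lyz1, a lysozyme, was likewise lowest in WT replicate 3, at 12.48, with all other arrays between 13.23 and 13.98, although its probe set is of a type that can also read the near-identical Lyz2. The probe set of Lyz1 without that mark averaged 7.33 in Eed-null, 7.15 in Ezh2-null and 7.21 in WT arrays, below the median of all genes. Leaving out WT replicate 3 turned the direction of all 3 of Tlr2, Lgals3 and Lyz1. In Eed-null against WT, Tlr2 differed by 0.21 with all arrays and -0.55 without it, Lgals3 by 0.02 and -0.39, and Lyz1 by 0.36 and -0.06. In Ezh2-null against WT, Tlr2 differed by 0.52 and -0.23, Lgals3 by 0.05 and -0.37, and Lyz1 by 0.30 and -0.11. F13a1, the A subunit of coagulation factor XIII and a gene of monocytes, went with another array. It read 7.36 in Eed-null replicate 1 and between 9.02 and 10.71 on the 9 other arrays. Its difference from WT in Eed-null was -0.93 (SE 0.71) with all arrays and -0.02 without that array. In Ezh2-null it was -0.50 (SE 0.67), and -1.04 without WT replicate 3.

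**Figure D4:**
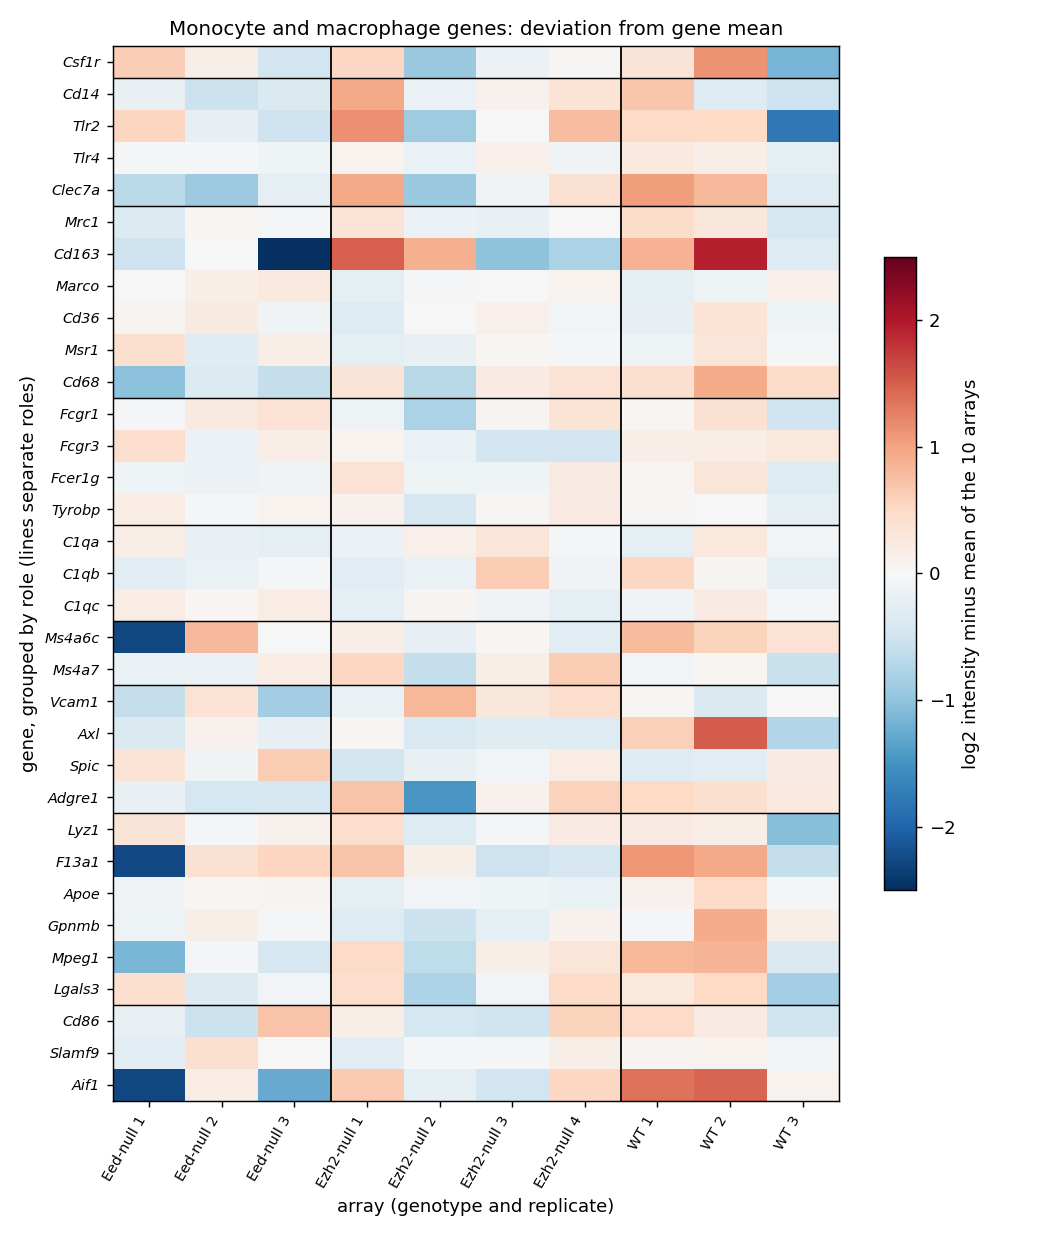
Log2 intensity of the 33 genes (rows, grouped by role with lines between roles) on each array (columns, Eed-null, Ezh2-null and WT) as the deviation from the gene's mean over the 10 arrays, red above and blue below, with the colour scale ending at 2.5 in each direction. WT replicate 3 and Ezh2-null replicate 2 are mostly blue, with member means of 8.15 and 8.14, and the deep blue cells of Eed-null replicate 1 are Ms4a6c, F13a1 and Aif1.

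Inside WT and inside Ezh2-null, many members had the same array as their lowest. WT replicate 3 was the lowest WT array for 23 of the 33 genes, against 31.4% of all genes, and WT replicate 2 the highest for 18, against 45.5% of all genes. Ezh2-null replicate 2 was the lowest Ezh2-null array for 16 genes, against 24.2% of all genes. Eed-null replicates 1, 2 and 3 were the lowest Eed-null array for 14, 12 and 7 genes, against 33.5%, 39.7% and 26.9% of all genes. The mean log2 level of the 33 was 8.14, 8.39 and 8.27 in Eed-null, 8.66, 8.14, 8.37 and 8.54 in Ezh2-null and 8.74, 8.88 and 8.15 in WT arrays, so the groups overlapped throughout. WT replicate 3 was also the lowest array for 16 of the 21 granulocyte markers. Ezh2-null replicate 2 was the lowest array for 1 of them, with a granulocyte mean of 12.02 beside 12.15 to 12.42 in the other Ezh2-null arrays. Their part in the values of the 33 genes was not tested, and fewer cells of a type cannot be told apart from less RNA per cell in sorted bulk samples.

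Further genes of the lineage were read from lists of names. Of 20 measured further monocyte genes, 0 passed in Eed-null against WT (limma, 4 at an unadjusted p under 0.05, all lower). Of all genes, 4.98% were lower at that level and 10.4% either way. In this list 13 were negative, against 45.2% of all genes, and the median was -0.19. The median was -0.51 without WT replicate 3 and -0.05 without WT replicate 2. Ccr2, the chemokine receptor of inflammatory monocytes, read 5.61, 9.04 and 8.62 in Eed-null, against 11.23, 11.18 and 9.96 in WT arrays, with a difference of -3.03 (SE 0.74; limma, adjusted p = 0.208). It was -1.96 without Eed-null replicate 1. Without that array and WT replicate 3, a pair left out after seeing the data, it was -2.37 and passed (limma, adjusted p = 0.0179). Cx3cr1, the fractalkine receptor, read 7.0, 8.06 and 7.43 in Eed-null, against 9.42, 9.89 and 8.25 in WT arrays, with a difference of -1.69 (SE 0.47; limma, adjusted p = 0.264). Both were among the 4 of 20 genes whose groups did not overlap, all lower in Eed-null. Of all genes, 5.31% were lower without overlap. Eed-null replicate 1 was the lowest array for both Ccr2 and Cx3cr1. In Ezh2-null against WT, 0 of the 20 passed (limma, 3 at an unadjusted p under 0.05, all lower). Of all genes, 1.83% were lower at that level and 3.74% either way. The list had 11 negative and a median of -0.03, or -0.50 without WT replicate 3. Emilin2, an extracellular matrix glycoprotein, differed by -1.81 (SE 0.41) and the matrix gene Fn1, fibronectin, by -1.91 (SE 0.54; limma, adjusted p = 0.930 and 1.00).

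Genes of macrophage maturity, digestion and signalling gave no call with all arrays. At an unadjusted p under 0.05 (limma) lay 10.4% of all genes in Eed-null and 3.74% in Ezh2-null against WT, beside the counts below. Of 32 further macrophage genes, 0 passed in Eed-null against WT (limma, 4 at an unadjusted p under 0.05), with 20 positive and a median of 0.04. Among them Abca1, the cholesterol exporter, read 5.73, 8.32 and 8.42 in Eed-null, against 5.87, 5.68 and 4.44 in WT arrays, a difference of 2.16 (SE 0.65; limma, adjusted p = 0.301). Eed-null replicates 2 and 3 were high for Abca1, and replicate 1 lay within the WT range. Without Eed-null replicate 1, the array that disagreed, the Abca1 difference was 3.04 (SE 0.41) and passed (limma, adjusted p = 0.0289). That call depends on leaving this array out. Of 21 lysosome and phagosome genes, 14 were negative with a median of -0.23 and 0 passed (limma, 3 at an unadjusted p under 0.05), and without Eed-null replicate 1 the count was 11 and the median 0.00. The lysosomal membrane gene Lamp1 read 12.05, 12.40 and 12.15 in Eed-null, against 12.78, 12.46 and 12.82 in WT arrays, a difference of -0.49 (SE 0.14; limma, adjusted p = 0.297). The inflammatory genes had medians of 0.12 in Eed-null and 0.06 in Ezh2-null against WT, the Toll-like receptor signalling genes -0.06 and -0.02, and the Fc receptor and ITAM signalling genes 0.10 and 0.27, with 0 called in each case (limma, 1 and 3, 0 and 0, and 2 and 2 at an unadjusted p under 0.05). Without WT replicate 3 these medians were -0.03 and -0.07 for the inflammatory, -0.30 and -0.03 for the Toll-like receptor and -0.06 and 0.00 for the Fc receptor and ITAM genes, and without Eed-null replicate 1 that of the inflammatory genes in Eed-null was -0.09. In the last list Clec4n, a lectin receptor that signals through Fcer1g, read 7.16, 7.01, 6.13 and 7.38 in Ezh2-null, against 5.95, 5.33 and 4.72 in WT arrays. All Ezh2-null arrays lay above all WT arrays, and the difference was 1.58 (SE 0.35; limma, adjusted p = 0.930). In Eed-null, Clec4n read 5.44, 5.92 and 5.03.

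Markers of other cells were read beside these values. The dendritic cell markers (15 measured) had medians of -0.04 in Eed-null and 0.08 in Ezh2-null against WT (-0.26 and -0.17 without WT replicate 3), and H2-Ab1, a class II histocompatibility gene, read 8.51, 8.86 and 8.42 in Eed-null, against 11.24, 10.42 and 9.64 in WT arrays (difference -1.84, SE 0.68; limma, adjusted p = 0.399). The granulocyte markers had medians of 0.49 in Eed-null and 0.56 in Ezh2-null against WT, with 17 and 20 of 21 positive. Without WT replicate 3 these medians were -0.01 and 0.11, with 10 and 16 of 21 positive. The stem and progenitor markers (16 measured) had medians of 0.28 and -0.04, the erythroid and megakaryocyte markers (15 measured) 0.06 and 0.01, the lymphoid markers (17 measured) 0.19 and 0.03, and the stromal and endothelial markers (12 measured) 0.06 and -0.10. In each of these 6 lists 0 genes passed in either comparison (limma, between 0 and 3 genes of a list at an unadjusted p under 0.05). Of all genes, 10.4% in Eed-null and 3.74% in Ezh2-null against WT were at that level. The mean level of lymphoid markers was 6.68 to 6.80 in Eed-null, 6.40 to 6.64 in Ezh2-null and 6.53 to 6.57 in WT arrays, and 9 of these 17 genes lay below the median of all genes on every array. Their part in the values of the 33 genes was not tested.

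Genes with several probe sets showed where a single value hides disagreement. The 14 genes with more than 1 probe set had 0 probe sets called in any of the 3 comparisons when each was tested separately (limma). Msr1, a class A scavenger receptor, differed from WT by 0.05 in Eed-null leukaemia and by -0.15 in Ezh2-null leukaemia on the brightest of its 4 probe sets. Its dimmer ones gave -0.28, -0.75 and -0.82 for Eed-null leukaemia, then -0.30, -0.81 and -0.78 for Ezh2-null leukaemia. The probe sets of Csf1r gave 0.00, -0.50 and -0.28 in Eed-null against WT, those of Tlr4 ranged from -0.43 to 0.26, and those of C1qb from -0.56 to 0.02. The dimmest C1qb probe set had SDs of 0.12, 2.18 and 1.01 in Eed-null, Ezh2-null and WT arrays, so its arrays did not read alike. The 3 Lyz1 probe sets gave 0.36, 0.34 and 0.13. For Marco, C1qb, Spic, Lyz1 and Aif1 the probe set used is of a type (named with s or x) that can read more than 1 transcript, so their values may hold signal of a related gene.

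The promoters of these genes were compared as sequence, since PRC2 in mammals is known to favour promoters rich in CpG dinucleotides. A window of the 250 bases before the transcription start (RefSeq, GRCm38.p6) was matched by symbol for 24 of the 33 genes. The 24 windows held a median of 3.5 CpG (0 to 13), against 13 over the 14275 genes of the arrays with a window. Of the 24, Tlr2 and Lgals3 had 10 or more CpG, with 11 and 13, which is 8.33%, against 8571 of the 14275 windows. The motif GAGGAA, a core of the sites bound by the myeloid factor PU.1, was found on either strand in 13 of the 24 windows (54.2%), against 22.6% of all. The longer ETS-family letters AGGAAGT, which can overlap it, were in 8 of 24 (33.3%), against 7.54%. TTGCNNAA of C/EBP factors was in 3 of 24 against 8.06% of all, the interferon-stimulated response element in 1 of 24 against 2.54%, and TGANTCA of AP-1 in 1 of 24 against 5.58%. A match is a run of letters and not a measured site.

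The windows of the 4 genes with the smallest p between Eed-null and WT, and of the dim neighbours C1qb and C1qc, show these features. They are given 5′ to 3′ on the gene's own strand, ending at the base before the start, with GAGGAA and AGGAAGT on either strand in capitals. Aif1 lies on the minus strand at chr17:35176053-35176302, Cd68 on the minus strand at chr11:69666171-69666420, Mpeg1 on the plus strand at chr19:12460520-12460769, and Clec7a on the minus strand at chr6:129472780-129473029. C1qb and C1qc lie on the minus strand at chr4:136886201-136886450 and chr4:136892915-136893164.
Aif1: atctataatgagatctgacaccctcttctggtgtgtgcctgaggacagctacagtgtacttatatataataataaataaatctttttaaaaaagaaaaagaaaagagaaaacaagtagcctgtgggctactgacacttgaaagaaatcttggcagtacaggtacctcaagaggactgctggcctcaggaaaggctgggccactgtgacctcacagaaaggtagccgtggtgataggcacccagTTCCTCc
Cd68: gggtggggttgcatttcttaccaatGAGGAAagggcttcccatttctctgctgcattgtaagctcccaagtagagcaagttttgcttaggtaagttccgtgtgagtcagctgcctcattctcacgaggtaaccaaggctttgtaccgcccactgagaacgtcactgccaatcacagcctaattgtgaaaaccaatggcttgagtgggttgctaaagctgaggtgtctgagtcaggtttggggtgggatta
Mpeg1: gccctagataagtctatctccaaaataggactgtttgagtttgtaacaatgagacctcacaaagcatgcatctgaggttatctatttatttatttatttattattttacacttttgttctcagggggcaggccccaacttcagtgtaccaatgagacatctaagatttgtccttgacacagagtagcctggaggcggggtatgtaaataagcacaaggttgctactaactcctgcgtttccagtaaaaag
Clec7a: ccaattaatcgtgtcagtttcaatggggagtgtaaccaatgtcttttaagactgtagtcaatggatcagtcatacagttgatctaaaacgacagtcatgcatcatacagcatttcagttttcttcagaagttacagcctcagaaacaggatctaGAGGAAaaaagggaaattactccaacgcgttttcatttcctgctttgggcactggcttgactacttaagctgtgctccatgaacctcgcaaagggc
C1qb: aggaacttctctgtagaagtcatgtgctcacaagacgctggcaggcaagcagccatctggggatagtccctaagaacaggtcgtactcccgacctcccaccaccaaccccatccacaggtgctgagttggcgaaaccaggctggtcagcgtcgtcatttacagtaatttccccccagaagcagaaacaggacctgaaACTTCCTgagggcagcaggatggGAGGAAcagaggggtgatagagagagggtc
C1qc: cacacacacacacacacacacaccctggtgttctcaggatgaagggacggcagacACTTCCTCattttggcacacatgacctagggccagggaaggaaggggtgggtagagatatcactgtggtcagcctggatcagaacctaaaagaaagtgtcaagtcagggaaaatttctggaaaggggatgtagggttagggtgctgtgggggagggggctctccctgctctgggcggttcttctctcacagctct
Aif1 holds its match 7 bases before the start and a single CpG, and Cd68 and Clec7a hold 1 GAGGAA match each with 4 and 5 CpG. Mpeg1, whose level was also among the lower ones in Eed-null, holds neither motif and 2 CpG. C1qb holds both motifs at separate places, with 6 CpG, and in C1qc the 2 motifs overlap, with 2 CpG.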

How the data were processed

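RNA of the 10 sorted samples was amplified with a NuGEN whole-transcriptome kit and labelled with biotin, per the labels' protocols. RMA gave the deposited intensity values, per the submitters' processing notes, with no version named. They ran from 6.879 to 37712.6 in the deposited value table, so the scale was linear, and values were floored at 1 and turned into log2 here. A deposited table of intensity adjusted with ComBat, per the file headers, served as an alternative for Ezh2-null against WT. Its 9 columns of another series were not used here, and 16 values below 0 were set to the floor. Its 7 arrays each matched their own column best (r of 0.993 or more).

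Symbols came from that table and were brought up to date through RefSeq names of GRCm38.p6. Left out were 64 control probe sets, 5820 with no symbol, 1399 with several and 56 whose symbol had become a date. Of the 37762 left, the brightest per gene was kept, giving 20564 genes. Adgre1 is listed under an older symbol.

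The test was that of limma 3.58.1, run in R 4.3.3 (1 coefficient per genotype, all 10 arrays in 1 fit, eBayes with trend, two-sided, 3.48 prior degrees of freedom). Adjustment was by Benjamini-Hochberg over the 20564 genes, with calls at an adjusted p under 0.05. Since separate animals are not stated, p-values reflect only how these samples vary, which may be technical. SE is limma's moderated standard error, and intervals are at 95%. The fit was tested on simulated data. All 33 genes were accounted for, and the 8 with the smallest p per comparison were given by array. For 12 further lists, counts and genes among the 3 with the smallest p were given. Members and lists were chosen with earlier results of these data known, so neither is independent of them. Alternatives were quantile normalization, the mean of all probe sets, probe sets tested one by one, a filter on the lowest 40% of genes, 16 added before log2, eBayes without trend, only the groups compared, the replicate number as a block, the ComBat table and each array left out. Leaving out WT replicate 3 and Eed-null replicate 1 together was chosen after seeing the data.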

Additional observations from a re-analysis of the deposited data

Results flagged for a closer look

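Among the 33 groups of 4 Ezh2-null values, 1 had an array set apart from the others by more than Dixon's 95% critical value. Cd68 read 9.43 in Ezh2-null replicate 2, against 10.46, 10.33 and 10.49 in replicates 1, 3 and 4, a gap of 0.84 of the range. Chance alone sets an array apart in about 1 of 20 such groups. Without that array the Cd68 difference between Ezh2-null and WT was -0.29, against -0.54 with it. The groups of 3 arrays were too small for this measure.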

How the results depend on the processing

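The 24 results checked here were those with the smallest p in each comparison. All 24 kept their direction and stayed uncalled under every alternative run, and 0 of the 33 genes were called in any of them (limma). They were picked by p in the same data, so a kept direction follows in part from that choice. Members outside it did not all keep theirs. In Eed-null against WT, Csf1r ran from -0.63 to 0.52 over single arrays left out. Tlr2 differed by 0.21 with all arrays and by -0.55 without WT replicate 3. The median difference of the 33 moved beyond the spread between replicates in 4 cases. It was -0.34 in Ezh2-null against WT and -0.34 in Eed-null against WT without WT replicate 3, -0.34 in Ezh2-null against WT without that array and Eed-null replicate 1, and -0.26 in Eed-null against Ezh2-null with the lowest 40% of genes left out, which kept 22 members. The cause was not tested. Over single arrays left out, the medians ran from -0.34 to -0.04 against WT for both genotypes.

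Counts over all genes depended more on the setting. In Ezh2-null against WT, 5 calls became 2 with quantile normalization, 3 without trend, 10 over separate probe sets and 0 to 4 without a single array. In Eed-null against WT, 27 became 43 over separate probe sets, 1 with only the groups compared and 12 to 42 without a single array. In Eed-null against Ezh2-null, 16 became 28 with the mean of probe sets, 25 over separate probe sets, 13 to 36 without a single array and 44 without WT replicate 3 and Eed-null replicate 1.

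The replicate numbers were not shown to pair the samples. Same-numbered samples had correlations of deviations between -0.23 and 0.36, and differently numbered ones between -0.31 and 0.38. With so few arrays per genotype these values cannot exclude a pairing. With the replicate number as a block, the calls were 0, 16 and 4 in Ezh2-null against WT, Eed-null against WT and Eed-null against Ezh2-null, and the medians of the 33 genes were -0.15, -0.11 and -0.06. The dimness of 10 genes and the number of arrays limit what could be seen.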
